A study of Mus musculus with 12 samples.

Results

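Wnt ligands, their Frizzled receptors, and the secreted and membrane proteins that hold them in check were followed in granule cell progenitors of the mouse cerebellum, with and without an activated hedgehog pathway. The members were the genes whose array annotation gives 1 symbol made of Wnt, Fzd, Sfrp, Dkk or Rspo and a digit, together with the named genes Lgr4, Lgr5, Lgr6, Lrp5, Lrp6, Frzb, Wif1, Axin2, Lef1, Tcf7, Sp5, Nkd1, Nkd2, Rnf43 and Znrf3. This gave 56 of the 18194 genes measured, read by 109 probe sets, and the brightest probe set (by the mean of 12 arrays) stood for each gene. They comprised 19 ligands, 10 Frizzleds, 2 Lrp co-receptors, 10 secreted inhibitors, 7 R-spondins and Lgr receptors, 2 ubiquitin ligases and 5 nuclear factors or feedback targets. Fzd10os, a transcript antisense to Fzd10, matched the letters of the rule and was kept apart from the Frizzleds. No probe set carried Tcf7 as its only symbol, so that gene was not analysed here.

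The progenitors came from the hemispheres or the vermis (the midline part of the cerebellum) of mice at postnatal day 8. Wild type cells were compared with cells of the genotype Atoh1-CreER/+; R26LSL-SmoM2-YFP. In those mice a tamoxifen-dependent Cre driven by Atoh1, a gene of the granule cell lineage, releases SmoM2, an activated form of the hedgehog transducer Smoothened fused to YFP. Tamoxifen was given at 200 µg per g on postnatal day 2, and the sources used here do not say whether wild type mice received it too. All mice were of a mixed C57BL/6 and Swiss Webster background, cells were isolated on a Percoll density gradient, and each replicate pooled 5 mice. Each of the 2 genotypes was thus sampled in both regions, with 3 arrays for each of the 4 groups. An array value is a log2 expression value per probe set, so a difference of 1 is a doubling. The spread between arrays is that between pools, and nothing beyond the pooling says how separate the pools were.

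Wnt proteins are secreted, lipid-modified ligands that bind a Frizzled receptor together with Lrp5 or Lrp6. In the best known branch this stops the destruction of β-catenin, which then enters the nucleus and works with TCF and LEF factors on target genes such as Axin2 and Sp5, while other branches act on cell polarity and movement without β-catenin. Sfrp proteins, Frzb and Wif1 bind Wnts outside the cell, Dkk1, Dkk2 and Dkk4 act on Lrp5 and Lrp6, and the ligases Znrf3 and Rnf43 remove Frizzleds from the surface unless an R-spondin bound to an Lgr receptor holds them off. Granule cell progenitors divide in response to Sonic hedgehog from Purkinje cells, and medulloblastomas are grouped in part by whether their hedgehog or their Wnt pathway is active.

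The hedgehog readouts separated the genotypes on every array. Gli1, a transcription factor that hedgehog signalling induces, read 6.83 to 7.41 on the 6 wild type arrays and 8.55 to 8.88 on the 6 SmoM2 arrays. Its difference was 1.68 ± 0.14 (SE) in hemisphere and 1.50 ± 0.14 in vermis (limma, adjusted p = 2.52e-06 and 7.84e-06). Ptch1, the hedgehog receptor, differed by 1.69 and 1.83, and Hhip, a hedgehog-binding inhibitor, by 2.66 and 2.61. Smo differed by 0.46 in hemisphere (adjusted p = 0.00852) and by 0.28 in vermis (adjusted p = 0.0741). Of 8 markers of the granule cell lineage, 1 rose and 4 fell in hemisphere and 1 rose and 3 fell in vermis, with median differences of -0.39 and -0.35. Atoh1, which marks progenitors, rose in both regions (0.82 and 0.85). Pax6, present in progenitors and granule neurons, fell in both (by 0.55 and by 0.56), as did Cntn2 and Neurod1, which rise as the cells leave the cycle (Neurod1 by 0.85 and by 0.82), and Barhl1 fell in hemisphere (by 0.97, with -0.79 and adjusted p = 0.0621 in vermis). Arrays of 1 group correlated at 0.989 to 0.997. Wild type hemisphere replicate 1 stood apart with a choroid plexus transcript, Ttr, at 11.85 against 4.90 to 8.76 elsewhere, and wild type hemisphere replicate 3 with low spiked controls (bioB at 6.98 against 8.41 to 9.31). The Actb 3' minus 5' probe set difference, a sign of RNA quality, was 0.46 to 0.79 in wild type hemisphere and 0.88 to 1.10 in the other 3 groups. Its part in the hemisphere results was not tested.

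Of the 56 genes, 21 differed between SmoM2 and wild type cells in at least 1 region. In hemisphere 12 rose and 4 fell, and in vermis 10 rose and 8 fell (limma, two-sided, Benjamini-Hochberg adjusted p under 0.05 over all genes). The 10 that rose in both were Wnt4, Fzd1, Fzd5, Sfrp1, Sfrp2, Wif1, Rspo1, Lgr4, Lgr5 and Znrf3, which is 83.3% of those higher in hemisphere and 100% of those higher in vermis. Fzd3, Wnt7b and Sp5 fell in both, 75.0% of those lower in hemisphere and 37.5% of those lower in vermis. The 2 comparisons used different arrays on both sides, but they are not independent. They shared 1 estimate of the spread per gene, and same-numbered arrays of 1 genotype deviated together across the regions. The overlap between the regions over all genes was not counted. Over all genes 7.62% were called higher and 7.18% lower in hemisphere, and 7.56% and 9.46% in vermis. The median difference of the 56 genes was -0.12 in hemisphere, beside -0.05 over all genes, and -0.14 in vermis, beside -0.06. It differed with brightness. The 37 members with a mean below the median of all genes had a median of -0.19 in each region. The 19 above it had medians of 0.38 in hemisphere and 0.30 in vermis. Medians of all genes split in this way were not taken. The values of the 3 SmoM2 and 3 wild type arrays did not overlap for 26 of the 56 genes in hemisphere (31.7% of all genes) and for 24 in vermis (39.8% of all genes).

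These counts moved with single arrays. In hemisphere the count was 10 when wild type hemisphere replicate 2 was left out, 10 for SmoM2 hemisphere replicate 1 and 8 for SmoM2 hemisphere replicate 3. Of the arrays that stood apart, leaving out wild type hemisphere replicate 1 gave 20 genes (15 of the 16 among them) and leaving out replicate 3 gave 11. In vermis 11 passed without wild type vermis replicate 2 and 11 without replicate 3, 12 without SmoM2 vermis replicate 1 and 12 without replicate 2. A further quantile normalization gave 9 higher and 4 lower in vermis and centring on the median gave 10 and 5, in place of 10 and 8. The further normalization ended the calls of Fzd5 in both regions, of Nkd1 and Znrf3 in hemisphere, and of Lef1, Wnt7b, Wnt9b and Wnt11 in vermis (adjusted p 0.0584 to 0.191). Fzd1, Sfrp2, Wif1, Rspo1, Lgr5 and Wnt4 passed in both regions without any 1 array and under every alternative with 1 value per gene. The same held for Sp5 and Znrf3 in vermis and for Fzd2 in hemisphere. Rspo1 and Sp5 lie below the median gene and were not in the run on brighter genes. On their own, the second probe sets of Lgr5 in hemisphere and of Wnt4 and Znrf3 in vermis did not pass. In bulk samples fewer cells of a type and less RNA per cell cannot be told apart.

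**Figure D1:**
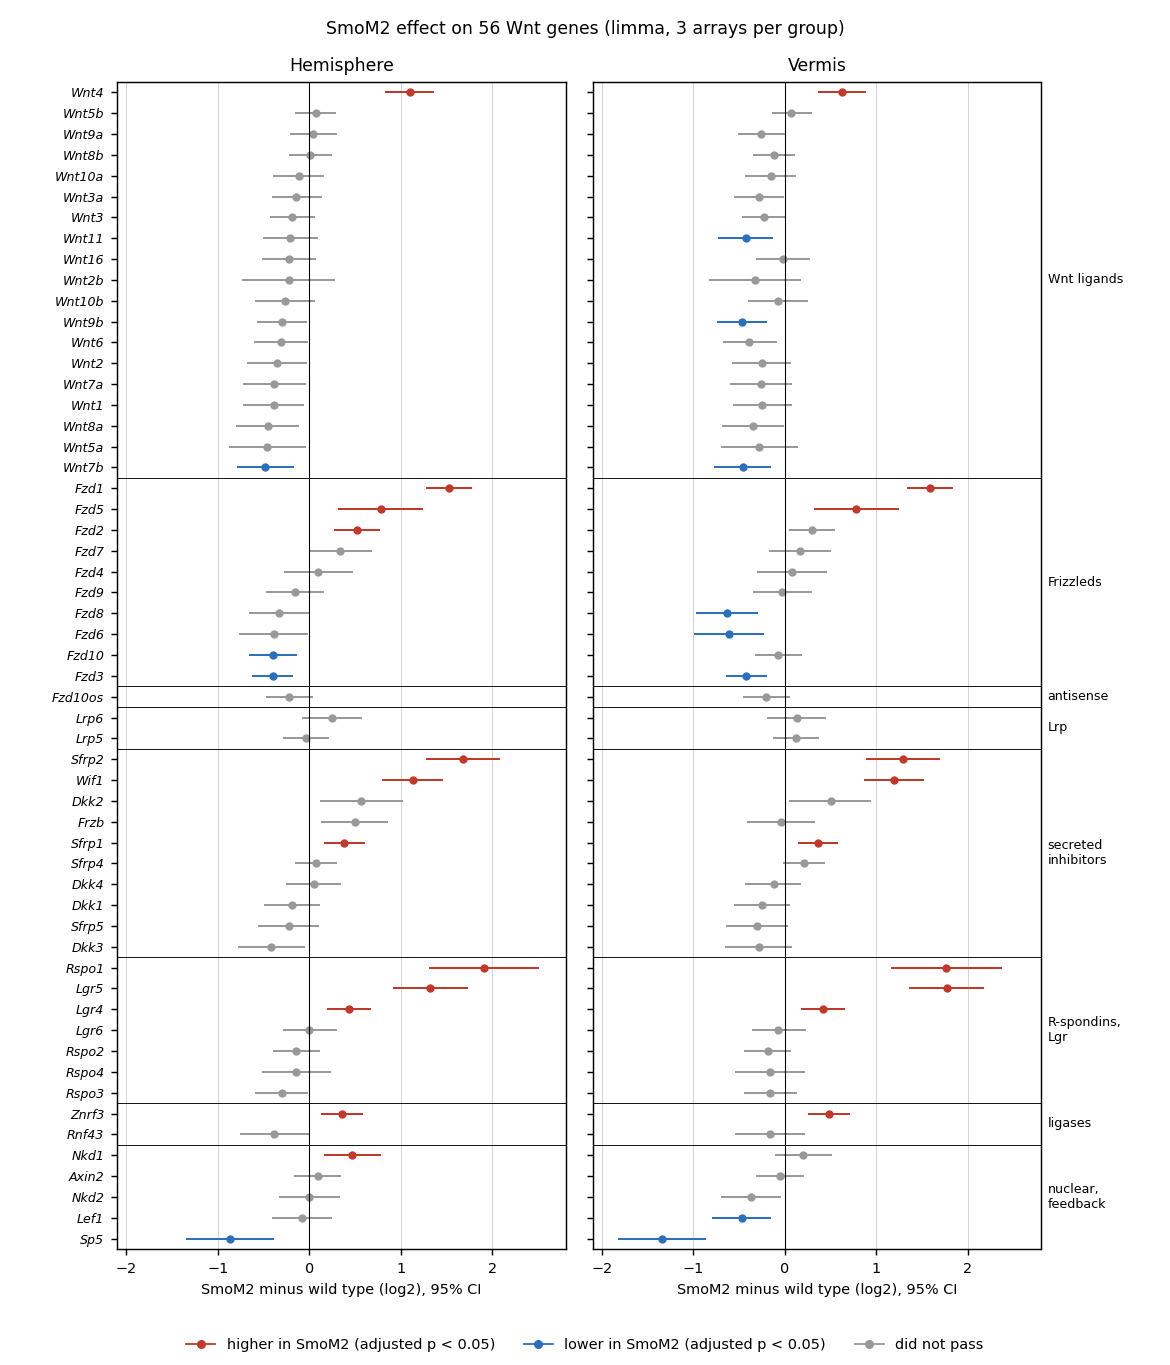
SmoM2 minus wild type difference (log2, points) with its 95% confidence interval (lines) for the 56 genes in hemisphere (left) and vermis (right), grouped by role. Red marks genes higher and blue genes lower at an adjusted p under 0.05. The differences range from -0.87 to 1.91 in hemisphere and from -1.34 to 1.77 in vermis, with Rspo1, Lgr5, Sfrp2, Fzd1 and Wif1 far to the right and Sp5 far to the left in both.

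The stretch of 250 bases before the annotated start (RefSeq, GRCm38.p6) is shown for Sp5 and Wnt11. These are the passing members whose promoter holds the TCF and LEF core CTTTGAT. The same stretch is shown for Fzd1, Sfrp2, Wif1 and Rspo1, which rose by over 1 log2 unit in both regions. Sp5 fell in both regions and Wnt11 in vermis, while Fzd10, Lef1 and Wnt9b, which each fell in 1 region, held no core. A link between the core and the direction was not tested. The sequences run 5′ to 3′ on the gene's strand. Capitals mark the core on either strand, and a sequence without capitals holds none. Sp5 lies at chr2:70474673-70474922 (plus strand), Wnt11 at chr7:98834862-98835111 (plus), Fzd1 at chr5:4758217-4758466 (minus), Sfrp2 at chr3:83766071-83766320 (plus), Wif1 at chr10:121033754-121034003 (plus) and Rspo1 at chr4:124986180-124986429 (plus).
Sp5: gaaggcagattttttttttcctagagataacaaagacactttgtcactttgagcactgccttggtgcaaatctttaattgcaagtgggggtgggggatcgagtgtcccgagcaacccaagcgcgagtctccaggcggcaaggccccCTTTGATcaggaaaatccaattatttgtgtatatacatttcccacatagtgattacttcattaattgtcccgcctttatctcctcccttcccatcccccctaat
Wnt11: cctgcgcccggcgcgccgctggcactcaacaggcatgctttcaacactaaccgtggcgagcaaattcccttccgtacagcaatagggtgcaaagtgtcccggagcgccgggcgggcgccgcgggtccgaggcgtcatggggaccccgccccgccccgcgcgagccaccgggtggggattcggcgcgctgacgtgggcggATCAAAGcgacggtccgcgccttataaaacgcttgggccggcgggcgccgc
Fzd1: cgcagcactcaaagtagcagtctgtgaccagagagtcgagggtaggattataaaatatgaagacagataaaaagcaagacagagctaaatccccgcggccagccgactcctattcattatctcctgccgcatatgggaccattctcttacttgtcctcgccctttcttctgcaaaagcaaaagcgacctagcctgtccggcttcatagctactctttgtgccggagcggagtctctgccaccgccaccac
Sfrp2: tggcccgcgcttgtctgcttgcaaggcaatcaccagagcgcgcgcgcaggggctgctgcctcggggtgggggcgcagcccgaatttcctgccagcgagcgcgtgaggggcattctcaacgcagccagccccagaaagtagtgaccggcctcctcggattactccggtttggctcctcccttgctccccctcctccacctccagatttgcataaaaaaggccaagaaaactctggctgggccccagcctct
Wif1: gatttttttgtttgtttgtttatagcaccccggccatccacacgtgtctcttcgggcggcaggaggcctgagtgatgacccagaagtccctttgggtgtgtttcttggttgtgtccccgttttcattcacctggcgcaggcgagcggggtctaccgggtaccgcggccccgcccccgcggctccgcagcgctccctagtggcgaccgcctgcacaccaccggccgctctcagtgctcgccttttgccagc
Rspo1: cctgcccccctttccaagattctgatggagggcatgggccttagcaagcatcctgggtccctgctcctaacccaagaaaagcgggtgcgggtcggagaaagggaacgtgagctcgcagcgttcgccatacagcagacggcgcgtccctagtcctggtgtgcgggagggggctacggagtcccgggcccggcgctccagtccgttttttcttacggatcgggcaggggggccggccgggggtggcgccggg
In Sp5 the core lay at bases -104 to -98 from the start, on the gene's strand, and in Wnt11 at bases -51 to -45, as ATCAAAG on the opposite strand. A second annotated Wnt11 start held none. Promoter entries were held for 13 of the 21 passing members, and the other 8 were Fzd2, Fzd3, Fzd6, Fzd8, Lgr5, Sfrp1, Wnt7b and Znrf3. CTTTGAT on either strand was in 3.21% of the 32851 promoters searched, CTTTGAA in 4.46% and the GLI consensus TGGGTGGTC in 0.225%. Over the 44 promoters of 37 members, CTTTGAT was also in Wnt5b, CTTTGAA in Dkk1, and TGGGTGGTC in 0. A match describes the letters in this window and is not a measured binding site.

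Among the 19 ligands, 1 rose and 1 fell in hemisphere, and 1 rose and 3 fell in vermis. The shares over all genes were 7.62% higher and 7.18% lower in hemisphere, and 7.56% and 9.46% in vermis. Wnt4, a ligand known for roles in kidney, gonad and spinal cord that can act with or without β-catenin, was the one that rose. It read 6.01, 5.98 and 6.06 in wild type hemisphere and 7.17, 7.20 and 6.98 in SmoM2 hemisphere, and 6.16, 6.33 and 6.60 in wild type vermis against 7.08, 7.01 and 6.86 in SmoM2 vermis. Every SmoM2 array lay above every wild type array. The difference was 1.10 ± 0.12 in hemisphere, 2.14-fold (adjusted p = 2.3e-05), and 0.62 ± 0.12 in vermis, 1.54-fold (adjusted p = 0.00279).

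Wnt7b, a ligand that signals through β-catenin in brain vessels and neurons, was lower in SmoM2 cells in both regions. It read 6.23, 6.59 and 6.72 in wild type hemisphere against 5.90, 6.08 and 6.12, and 6.16, 6.30 and 6.46 in wild type vermis against 5.92, 5.63 and 6.00. Within each region the groups did not overlap, though the nearest arrays lay close together. It fell by 0.48 and by 0.46 (SE 0.14 each, adjusted p = 0.035 and 0.0391). Wnt9b, known for kidney tubule formation, read 3.76, 3.85 and 3.97 in wild type vermis against 3.20, 3.47 and 3.52 and fell by 0.47 (adjusted p = 0.0185), with -0.30 in hemisphere (adjusted p = 0.11, or -0.38 and 0.0461 without wild type hemisphere replicate 1) from 3.82, 4.01 and 4.12 against 3.54, 3.83 and 3.69. Wnt11, a ligand of the β-catenin-independent branch, read 3.79, 3.77 and 4.18 in wild type vermis against 3.27, 3.55 and 3.62 and fell by 0.43 (adjusted p = 0.0422). In hemisphere Wnt11 read 3.66, 3.86 and 3.92 against 3.73, 3.60 and 3.47, a difference of -0.21 with overlapping groups. Wnt9b and Wnt11 lie near the dim end of the arrays, whose lower quartiles are 3.24 to 3.42, where log2 differences are compressed.

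The vermis call of Wnt11 was lost without wild type vermis replicate 2 or 3, SmoM2 vermis replicate 1 or 2, or SmoM2 hemisphere replicate 2 or 3 (adjusted p 0.0514 to 0.173) and when arrays of 1 genotype and replicate number were a random block (0.0503), and that of Wnt9b without wild type vermis replicate 2 or 3 or SmoM2 vermis replicate 1 (0.0511 to 0.0903). Wnt7b missed the threshold in hemisphere without any 1 of the SmoM2 hemisphere arrays or wild type hemisphere replicate 2 or 3 (0.063 to 0.129), and in vermis without wild type vermis replicate 2 or 3, SmoM2 vermis replicate 1 or 2 or SmoM2 hemisphere replicate 2 or 3 (0.0508 to 0.164). Of the 15 ligands that passed in neither region, Wnt5a, the main ligand of the β-catenin-independent branch, was the one with a mean above the median of all genes (5.93). It read 6.43 to 6.90 on the wild type arrays and 5.63 to 6.52 on the SmoM2 arrays, with differences of -0.46 ± 0.19 and -0.28 ± 0.19 (adjusted p = 0.118 and 0.327). Wnt7a, which granule neurons release to shape the mossy fibre endings that contact them, differed by -0.38 ± 0.15 and -0.26 ± 0.15 (adjusted p = 0.111 and 0.261), and Wnt3, a ligand of Purkinje cells, by -0.19 ± 0.11 and -0.23 ± 0.11. Wnt1, which the embryo needs to form a cerebellum, was dim and differed by -0.39 ± 0.15 and -0.25 ± 0.15. The rest (Wnt2, Wnt2b, Wnt3a, Wnt5b, Wnt6, Wnt8a, Wnt8b, Wnt9a, Wnt10a, Wnt10b and Wnt16) ranged from -0.45 to 0.07 in hemisphere and from -0.39 to 0.07 in vermis. The median difference over the 19 ligands was -0.22 in hemisphere and -0.26 in vermis, beside -0.05 and -0.06 over all genes.

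The Frizzleds, the membrane-spanning Wnt receptors, moved in both directions. In hemisphere Fzd1, Fzd2 and Fzd5 rose and Fzd3 and Fzd10 fell, and in vermis Fzd1 and Fzd5 rose and Fzd3, Fzd6 and Fzd8 fell. Fzd1 read 8.54, 8.12 and 8.41 in wild type hemisphere and 9.80, 9.87 and 10 in SmoM2 hemisphere, and 8.38, 8.36 and 8.41 in wild type vermis against 9.95, 9.90 and 10.05. The gap between the lowest SmoM2 and the highest wild type array exceeded the range within every group. Its difference was 1.53 ± 0.11 in hemisphere, 2.89-fold, and 1.58 ± 0.11 in vermis, 2.99-fold (adjusted p = 6.27e-07 and 4.24e-07), the smallest adjusted p of the 56 genes in each region.

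Fzd5, a receptor known from eye and gut development, read 6.38, 6.63 and 5.92 in wild type hemisphere and 7.37, 6.66 and 7.23 in SmoM2 hemisphere. The vermis arrays gave it 6.37, 6.78 and 6.15 in wild type cells and 7.07, 7.18 and 7.40 in SmoM2 cells. The groups did not overlap, but in hemisphere SmoM2 replicate 2 lay just above the highest wild type array. The difference was 0.78 ± 0.21 in each region (adjusted p = 0.025 and 0.0224). Fzd2 read 8.49, 8.21 and 8.60 in wild type hemisphere against 8.92, 9.03 and 8.92, a difference of 0.52 ± 0.11 (adjusted p = 0.0069). In vermis Fzd2 read 8.96, 8.93 and 8.74 against 9.11, 9.23 and 9.21, and its difference of 0.30 ± 0.11 did not pass (adjusted p = 0.0776), though it passed with the mean of all probe sets (0.38, adjusted p = 0.0161) and with array weights (0.0413). Its wild type level was thus nearer to the SmoM2 level in vermis than in hemisphere, and the test of the difference between the 2 effects did not pass (interaction adjusted p = 1.0).

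Fzd3, which acts with the planar polarity proteins in axon guidance, read 10.31, 10.38 and 10.14 in wild type hemisphere against 9.86, 9.86 and 9.91 in SmoM2 hemisphere. Vermis values were 10.30, 10.19 and 10.17 against 9.89, 9.75 and 9.77. All SmoM2 arrays lay below all wild type arrays, and it fell by 0.40 and by 0.42 (SE 0.10 each, adjusted p = 0.0127 and 0.00937). Fzd6, a polarity receptor of skin and hair, read 6.57, 7.20 and 6.84 in wild type vermis against 6.10, 6.41 and 6.26 and fell by 0.61 ± 0.17 (adjusted p = 0.0273). In hemisphere Fzd6 read 6.55, 6.67 and 7.07 against 6.13, 6.51 and 6.49, a difference of -0.39 that did not pass (adjusted p = 0.142). Fzd8 read 5.61, 5.94 and 5.49 in wild type vermis against 5.04, 5.22 and 4.88 and fell by 0.63 ± 0.15 (adjusted p = 0.0115), while in hemisphere it read 5.72, 5.40 and 5.26 against 5.08, 4.98 and 5.32 (-0.33, adjusted p = 0.153). Fzd10 read 5.43, 5.55 and 5.81 in wild type hemisphere against 5.19, 5.37 and 5.03 and fell by 0.40 ± 0.12 (adjusted p = 0.0351). In vermis Fzd10 read 5.50, 5.42 and 5.40 against 5.37, 5.42 and 5.32, a difference of -0.07 (adjusted p = 0.687).

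Single arrays decided several of these calls. Fzd5 missed the threshold in hemisphere without wild type hemisphere replicate 3 or SmoM2 hemisphere replicate 1 or 3 (adjusted p 0.0904 to 0.112), and in vermis without wild type vermis replicate 1 or 3 or SmoM2 vermis replicate 2 or 3 (0.05 to 0.0957). Fzd3 missed it in hemisphere without wild type hemisphere replicate 2 (0.0532), Fzd8 in vermis without wild type vermis replicate 2 (0.0582), and Fzd6 in vermis without wild type vermis replicate 2 or 3 or SmoM2 vermis replicate 1 or 3 (0.0622 to 0.121). Fzd10 missed it without wild type hemisphere replicate 2 or 3 or SmoM2 hemisphere replicate 1 or 3 (0.0642 to 0.144), and Fzd2 passed in vermis without wild type hemisphere replicate 2 (0.0464). Of the Frizzleds that passed in neither region, Fzd7 was above the median gene, at 7.33 to 7.87 on the wild type and 7.66 to 8.26 on the SmoM2 arrays, with differences of 0.34 ± 0.15 and 0.17 ± 0.15. Fzd4 and Fzd9 differed by 0.10 and -0.16 in hemisphere. The antisense transcript Fzd10os differed by -0.22 and -0.21 and did not pass.

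Neither co-receptor passed. Lrp6, which pairs with Frizzleds at the membrane, read 7.88 to 8.39 in wild type and 8.09 to 8.53 in SmoM2 cells, with differences of 0.25 ± 0.15 in hemisphere and 0.13 ± 0.15 in vermis and 95% confidence intervals of -0.07 to 0.56 and -0.18 to 0.44. Lrp5 differed by -0.04 and 0.12 (SE 0.11 each).

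Of the 10 secreted inhibitors, Sfrp1, Sfrp2 and Wif1 rose in both regions and 0 fell. Over all genes 7.62% rose and 7.18% fell in hemisphere, and 7.56% and 9.46% in vermis. With so few genes, the absence of falls is not read as a result. Sfrp2, a protein with a Frizzled-like domain that binds Wnts, read 7.31, 6.52 and 6.75 in wild type hemisphere and 8.50, 8.55 and 8.57 in SmoM2 hemisphere. On vermis arrays it read 7.03, 6.41 and 6.55 against 7.84, 8.04 and 7.99. Wild type arrays ranged more widely than SmoM2 arrays, and in both regions wild type replicate 1 was the highest. The difference was 1.68 ± 0.18 in hemisphere, 3.20-fold, and 1.29 ± 0.18 in vermis, 2.45-fold (adjusted p = 2.48e-05 and 0.000249).

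Wif1, which binds Wnts through its own WIF domain, read 5.92, 5.44 and 5.45 in wild type hemisphere and 6.74, 6.70 and 6.75 in SmoM2 hemisphere. Its vermis values were 5.86, 5.52 and 5.60 against 7.11, 6.79 and 6.67. The groups stood apart in both regions. Wif1 rose by 1.13 ± 0.15 (2.19-fold) and 1.19 ± 0.15 (2.29-fold), with adjusted p of 0.000135 and 7.73e-05. Sfrp1, another secreted Frizzled-related protein, read 10.11, 10.08 and 10.16 in wild type hemisphere against 10.49, 10.51 and 10.51, and 10.22, 10.13 and 10.15 in wild type vermis against 10.36, 10.53 and 10.69. Its rise was small and its arrays close together, at 0.38 ± 0.10 and 0.36 ± 0.10 (adjusted p = 0.0177 and 0.0222).

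The Sfrp1 call was lost in hemisphere without wild type hemisphere replicate 2 or SmoM2 hemisphere replicate 1 or 3 (adjusted p 0.0526 to 0.0584) and in vermis without wild type vermis replicate 2 or 3 or SmoM2 vermis replicate 2 or 3 (0.0654 to 0.094). The other 7 inhibitors passed in neither region. Dkk3, a divergent Dickkopf protein and the one of the 7 above the median gene, read 6.91 to 7.30 in wild type and 6.38 to 7.18 in SmoM2 cells, with differences of -0.42 ± 0.17 and -0.28 ± 0.17 (adjusted p = 0.104 and 0.246). Dkk2, which acts on Lrp5 and Lrp6, was dim, at 2.55 to 3.17 in wild type and 2.99 to 3.90 in SmoM2 cells, with differences of 0.57 ± 0.20 and 0.50 ± 0.20 (adjusted p = 0.0772 and 0.109). Frzb, a Wnt-binding relative of the Sfrp proteins, differed by 0.50 ± 0.17 in hemisphere (adjusted p = 0.0602) and by -0.04 ± 0.17 in vermis. Dkk1 and Dkk4 differed by -0.19 and 0.05 in hemisphere, and Sfrp4 and Sfrp5 by 0.07 and -0.22.

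**Figure D2:**
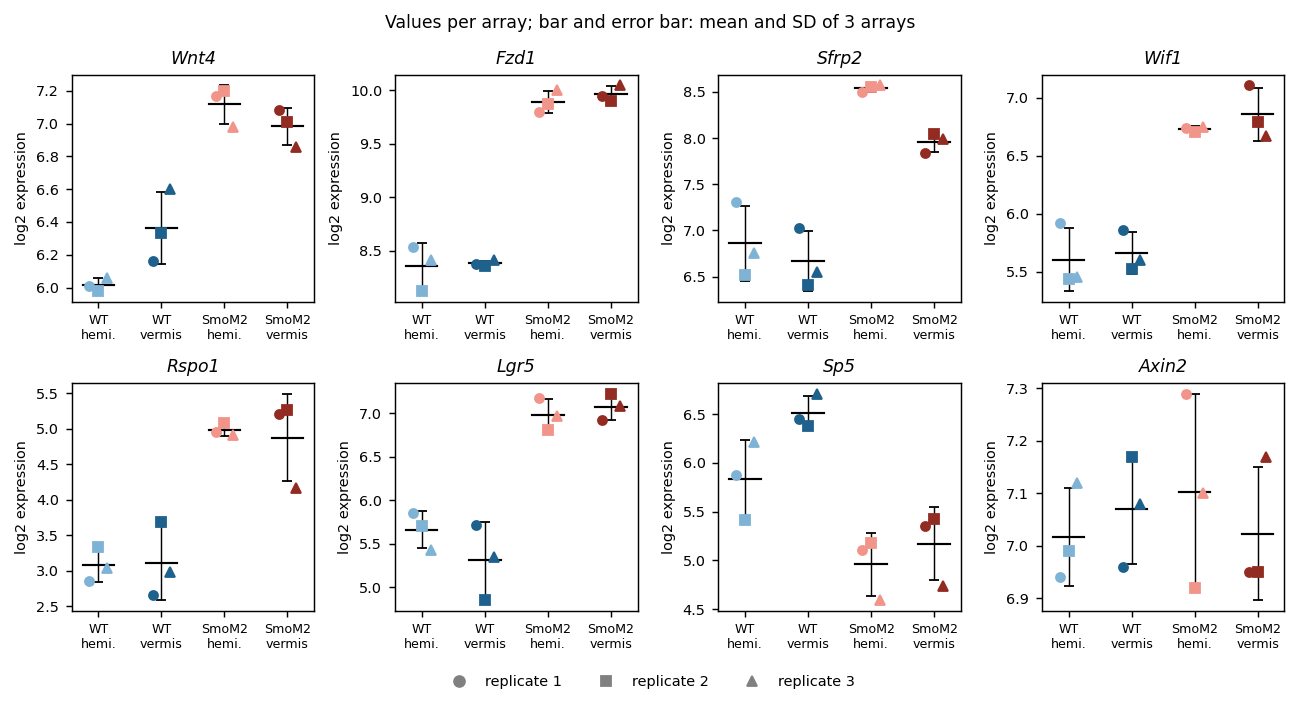
Log2 expression on each array for 8 genes, by group, with the group mean (bar) and SD (error bar) of 3 arrays and a marker shape per replicate number. Wnt4, Fzd1, Sfrp2, Wif1, Rspo1 and Lgr5 lie higher and Sp5 lower on every SmoM2 array than on the wild type arrays of the same region, while Axin2 overlaps, at 6.92 to 7.29 on all 12 arrays. The vertical axes differ between genes and do not start at 0.

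Of the 7 R-spondins and Lgr receptors, Rspo1, Lgr4 and Lgr5 rose in both regions and 0 fell. The all-gene shares were 7.62% higher and 7.18% lower in hemisphere, and 7.56% and 9.46% in vermis. For a list this short, the lack of falls is not read as a result. Rspo1, a secreted protein that strengthens Wnt signals through Lgr receptors, read 2.86, 3.33 and 3.03 in wild type hemisphere and 4.95, 5.08 and 4.91 in SmoM2 hemisphere. The vermis arrays gave it 2.66, 3.69 and 2.98 against 5.20, 5.26 and 4.16. The wild type values lie around the lower quartile of the arrays, and SmoM2 vermis replicate 3 was lower than the other SmoM2 arrays but above all wild type arrays. The log2 values of Rspo1 rose by 1.91 ± 0.28 and 1.76 ± 0.28 (adjusted p = 0.000326 and 0.000559). With wild type means of 3.07 and 3.11, below the lower quartile of every array (3.24 to 3.42), and no detection calls in these data, no fold or rank is given for it.

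Lgr5, an R-spondin receptor known as a stem cell marker of the gut, read 5.85, 5.70 and 5.43 in wild type hemisphere and 7.17, 6.81 and 6.97 in SmoM2 hemisphere. Vermis values were 5.72, 4.85 and 5.35 against 6.92, 7.22 and 7.08. All SmoM2 arrays lay above all wild type arrays. The difference was 1.32 ± 0.19 in hemisphere and 1.77 ± 0.19 in vermis, 2.50-fold and 3.40-fold (adjusted p = 0.000248 and 1.81e-05). Lgr4, the related and more widely expressed receptor, read 8.55, 8.69 and 8.42 in wild type hemisphere against 9.0, 8.89 and 9.06, and 8.48, 8.73 and 8.76 in wild type vermis against 9.08, 9.07 and 9.08. It rose by 0.43 and 0.42 (SE 0.11 each, adjusted p = 0.0149 and 0.0162). That call was lost in hemisphere without wild type hemisphere replicate 3 or SmoM2 hemisphere replicate 1 or 3 (adjusted p 0.0526 to 0.0652) and in vermis without wild type vermis replicate 1 or SmoM2 vermis replicate 1 or 2 (0.0517 to 0.0535). Lgr6, Rspo2, Rspo3 and Rspo4 passed in neither region, with differences of -0.30 to 0.00 in hemisphere and -0.19 to -0.07 in vermis.

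Znrf3, the ligase that takes Frizzleds off the surface and that R-spondins counteract, read 7.0, 6.98 and 7.15 in wild type hemisphere against 7.29, 7.43 and 7.50, and 6.96, 6.77 and 6.99 in wild type vermis against 7.32, 7.35 and 7.48. The groups did not overlap in either region. It rose by 0.36 ± 0.10 in hemisphere (adjusted p = 0.0306) and 0.48 ± 0.10 in vermis (adjusted p = 0.0064). The hemisphere call was lost without wild type hemisphere replicate 2 or SmoM2 hemisphere replicate 2 or 3 (adjusted p 0.0781 to 0.118) and after a further quantile normalization (0.134). Rnf43, the related ligase, differed by -0.38 ± 0.17 and -0.16 ± 0.17 and did not pass.

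The feedback targets did not move together. Sp5, a zinc-finger factor and a target of β-catenin in many tissues, read 5.87, 5.41 and 6.21 in wild type hemisphere and 5.11, 5.18 and 4.59 in SmoM2 hemisphere. On vermis arrays it read 6.45, 6.38 and 6.71 against 5.35, 5.42 and 4.74. SmoM2 replicate 3 was the lowest in each region, and all SmoM2 arrays lay below the wild type arrays of their region. Sp5 fell by 0.87 ± 0.22 in hemisphere, 1.83-fold (adjusted p = 0.0157), and by 1.34 ± 0.22 in vermis, 2.53-fold (adjusted p = 0.000788), the largest fall of the 56 genes in each region. The hemisphere call was lost without wild type hemisphere replicate 3 (-0.68, adjusted p = 0.0695) or SmoM2 hemisphere replicate 3 (-0.69, adjusted p = 0.0775).

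Axin2, the scaffold of the β-catenin destruction complex whose transcript is widely used as a readout of the pathway, read 6.94, 6.99 and 7.12 in wild type hemisphere and 7.29, 6.92 and 7.10 in SmoM2 hemisphere. Its vermis values were 6.96, 7.17 and 7.08 against 6.95, 6.95 and 7.17. The groups overlapped in both regions, and the differences were 0.09 ± 0.12 (95% confidence interval -0.16 to 0.34) and -0.05 ± 0.12 (-0.30 to 0.20). Nkd1, a Dishevelled-binding inhibitor that the pathway induces, read 8.74, 8.60 and 9.09 in wild type hemisphere against 9.32, 9.32 and 9.20 and rose by 0.47 ± 0.14 (adjusted p = 0.0379). In vermis Nkd1 read 9.05, 8.95 and 9.40 against 9.34, 9.44 and 9.21, with a difference of 0.20 (adjusted p = 0.332). Lef1, a partner of β-catenin on DNA, read 5.04, 5.45 and 5.41 in wild type vermis against 4.95, 4.86 and 4.66 and fell by 0.47 ± 0.15 (adjusted p = 0.0423). In hemisphere Lef1 read 4.89, 4.90 and 5.33 against 5.06, 4.77 and 5.04, a difference of -0.08 (adjusted p = 0.739). Nkd2, a relative of Nkd1, differed by 0.00 and -0.37 and did not pass.

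The Nkd1 call was lost without wild type hemisphere replicate 1 or 2, without any 1 of the SmoM2 hemisphere arrays and without SmoM2 vermis replicate 1 (adjusted p 0.0523 to 0.144). The Lef1 call was lost without wild type vermis replicate 2 or 3, without any 1 of the SmoM2 vermis arrays and without SmoM2 hemisphere replicate 1 or 3 (0.0528 to 0.148), and also after centring on the median (0.0583). Across all roles, the 35 members that passed in neither region had differences of -0.46 to 0.57 in hemisphere and -0.39 to 0.50 in vermis, with a median SE of 0.14. A p above the threshold does not show that those genes were equal in the 2 genotypes.

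Between hemisphere and vermis, 0 of the 56 genes passed in wild type cells and 0 in SmoM2 cells by limma, with 7 and 3 at an unadjusted p under 0.05. Over all genes 0.187% passed in wild type and 0.0605% in SmoM2 cells, and 1149 and 661 of the 18194 genes (6.32% and 3.63%) had an unadjusted p under 0.05. The wild type genes with an unadjusted p under 0.05 (Sp5, Fzd2, Wnt9a, Wnt4, Frzb, Nkd1 and Nkd2) all read lower in hemisphere. Sp5 was -0.68 ± 0.22 (adjusted p = 0.415), Fzd2 -0.44 ± 0.11 (adjusted p = 0.199) and Wnt9a -0.42 ± 0.11 (adjusted p = 0.231). Wnt4 was -0.35 ± 0.12 (adjusted p = 0.505) and Frzb -0.48 ± 0.17 (adjusted p = 0.507). For Sp5, Fzd2, Wnt9a and Wnt4 the 3 hemisphere arrays lay below the 3 vermis arrays. These were the 4 of the 56 genes whose regions did not overlap in wild type cells. Markers of some other cell types also read lower in wild type hemisphere, and their part in these values was not tested. The median difference was -0.63 for oligodendrocyte markers (4 of 5 with an unadjusted p under 0.05 in limma, in either direction) and -0.45 for oligodendrocyte precursors (3 of 5). It was -0.41 for pericyte and meningeal markers (4 of 8, range -0.65 to 0.72) and -0.34 for Purkinje cell markers (3 of 5). Medians of the other lists were -0.21 (endothelial), -0.16 (unipolar brush cell), -0.12 (inhibitory interneuron), -0.08 (choroid plexus), 0.0 (Bergmann glia and astrocyte) and 0.1 (microglia). Pcp4, a Purkinje cell gene, passed (-1.01, adjusted p = 0.039 in limma). In SmoM2 cells Sfrp2 and Wnt9b read higher in hemisphere, by 0.58 ± 0.18 (adjusted p = 0.819) and 0.29 ± 0.12 (adjusted p = 1.0), and Sfrp4 read lower, at -0.22 ± 0.10 (adjusted p = 1.0). None of these 3 overlapped between the regions, as was so for 6 of the 56 genes in SmoM2 cells. The share of all genes without overlap between the regions was not counted for either genotype. With 3 arrays on each side, groups can also separate by chance. The separations of 4 genes in wild type and of 6 in SmoM2 cells are therefore given without a reading.

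Hemisphere and vermis arrays of 1 genotype with the same replicate number deviated together (correlations of 0.142 to 0.527), so the regional comparisons were also made within these pairs. The labels do not say whether 2 arrays of 1 number came from the same mice, and the pairing rests on those correlations. Sp5 was lower in hemisphere in 3 of 3 wild type pairs and passed with the pair as a fixed block (adjusted p = 0.0385) but not as a random block (0.0554), and Fzd2 was lower in 3 of 3 pairs and passed with a random block (0.045) but not a fixed block (0.143). In SmoM2 cells Sfrp2 was higher in hemisphere in 3 of 3 pairs and passed with the fixed block (0.0465) but not the random block (0.118). No other member changed its regional call with the pair as a block. Celsr1, a polarity cadherin outside the 56 genes, read higher in hemisphere in both genotypes, at 6.33, 6.38 and 6.18 against 5.68, 5.72 and 5.59 in SmoM2 cells. Its difference there was 0.63 ± 0.14 (adjusted p = 0.228), and it passed with the random block (0.0358) but not the fixed block (0.133).

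**Figure D3:**
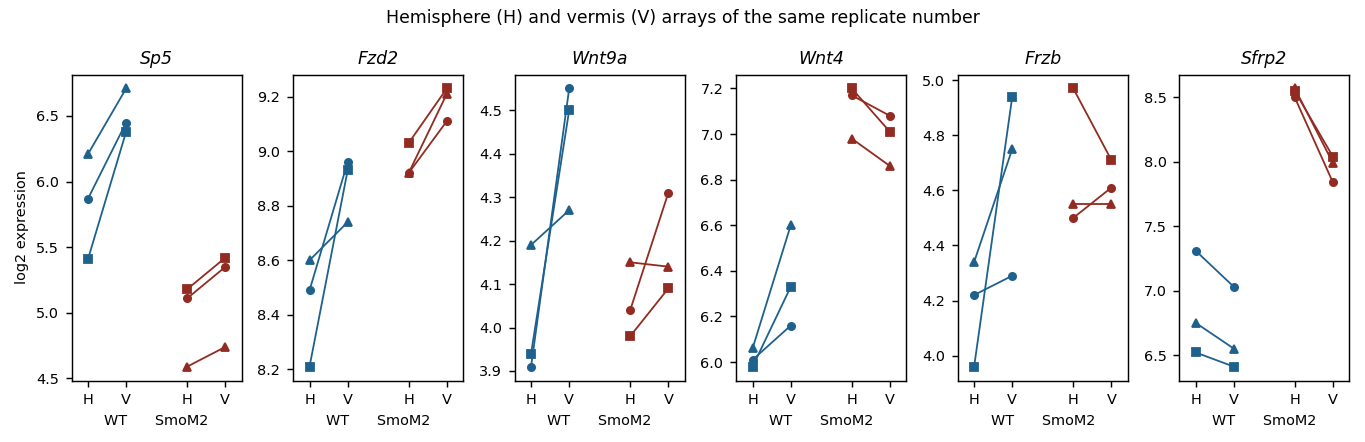
Log2 expression in hemisphere (H) and vermis (V) for 6 genes, with lines joining arrays of the same genotype and replicate number, wild type in blue and SmoM2 in red. Sp5 and Fzd2 rise from hemisphere to vermis in the 3 wild type pairs, and Sfrp2 falls in the 3 SmoM2 pairs, with the pairs taken from the replicate numbers. The vertical axes differ between genes and do not start at 0.

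Whether the SmoM2 effect differed between the regions was tested as an interaction. By limma 0 of the 56 genes and 0 of the 18194 genes (0%) passed, with 2 and 564 at an unadjusted p under 0.05. Wnt4 had the larger effect in hemisphere, by 0.48 ± 0.17 (95% confidence interval 0.12 to 0.84, adjusted p = 1.0), and so did Frzb, by 0.53 ± 0.24 (adjusted p = 1.0). Genes called in 1 region and not in the other, such as Fzd8, Fzd10 and Lef1, are therefore not shown to respond differently in the 2 regions.

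Further genes of the pathway were listed by role, and 67 of the 68 were measured (Kremen2 was the exception). In hemisphere 14 rose and 6 fell, and in vermis 14 rose and 8 fell. The shares over all genes were 7.62% higher and 7.18% lower in hemisphere, and 7.56% and 9.46% in vermis. Median differences of the 67 were 0.15 and 0.04, beside -0.05 and -0.06 over all genes. A further quantile normalization gave 15 higher and 5 lower in vermis. Without wild type vermis replicate 3, 14 passed in vermis. At the step of ligand release, Porcn, the enzyme that attaches the lipid that Wnts need for secretion, read 7.88, 7.41 and 7.92 in wild type hemisphere and 6.84, 6.99 and 6.63 in SmoM2 hemisphere. The vermis arrays gave it 7.88, 7.47 and 7.77 against 6.75, 6.90 and 6.68. Porcn fell by 0.91 and by 0.94 (SE 0.15 each, adjusted p = 0.00102 and 0.000785). Notum, which removes that lipid, fell by 0.49 in vermis (adjusted p = 0.0355).

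Of 12 extracellular modifiers, 4 rose and 1 fell in each region (shares over all genes as given above). Draxin, a secreted axon guidance protein that also inhibits Wnt signals, rose by 1.00 and 1.15, and Apcdd1, a membrane inhibitor, by 0.86 and 0.60. Gpc3 rose by 0.70 and 0.55 while its relative Gpc4, another glypican, fell by 1.00 and by 0.97. Tspan12, a partner of Fzd4, rose by 0.58 and 0.80. Of 13 receptors and polarity genes outside the Frizzled family, Ror2, the tyrosine kinase receptor for Wnt5a, rose most. It read 5.40 to 5.88 on the 6 wild type and 7.19 to 7.39 on the 6 SmoM2 arrays, with differences of 1.66 ± 0.12 and 1.72 ± 0.12 (adjusted p = 3.61e-07 and 2.27e-07). Prickle2, a core polarity protein, fell by 0.97 and by 1.06. Ror1 rose in vermis (0.71) and Vangl1 fell there (-0.48).

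Inside the cell, 2 of 20 transduction genes rose and 3 fell in each region (shares over all genes as given above). Apc, a scaffold of the destruction complex, read 10.72 to 11.12 in wild type and 10.28 to 10.36 in SmoM2 cells and fell by 0.50 and by 0.62 (adjusted p = 0.00435 and 0.000818), and Apc2 fell by 0.62 and by 0.76. Ctnnb1, which encodes β-catenin, read 12.28 to 12.50 in wild type and 12.74 to 12.80 in SmoM2 cells and rose by 0.36 and 0.37 (adjusted p = 0.0234 and 0.0178). In hemisphere Tnks2 rose (0.53) and Dact2 fell (-0.52), and in vermis Dvl2 rose (0.42) and Dvl3 fell (-0.47). Of 14 nuclear factors, 4 rose in hemisphere and 3 in vermis and 0 fell in either. Over all genes 7.62% and 7.56% rose, and 7.18% and 9.46% fell. Tcf7l2, a TCF factor, rose by 0.68 and 0.45, and the corepressors Tle1 and Tle4 rose by 0.76 and 0.68 in hemisphere and 0.92 and 0.51 in vermis. Tle3 rose in hemisphere (0.36). Of 5 targets shared with other pathways, Myc, Ccnd1 and Cd44 rose in both regions, Myc by 1.71 and 1.56 and Ccnd1, which hedgehog signalling also induces, by 1.37 and 1.59.

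**Figure D4:**
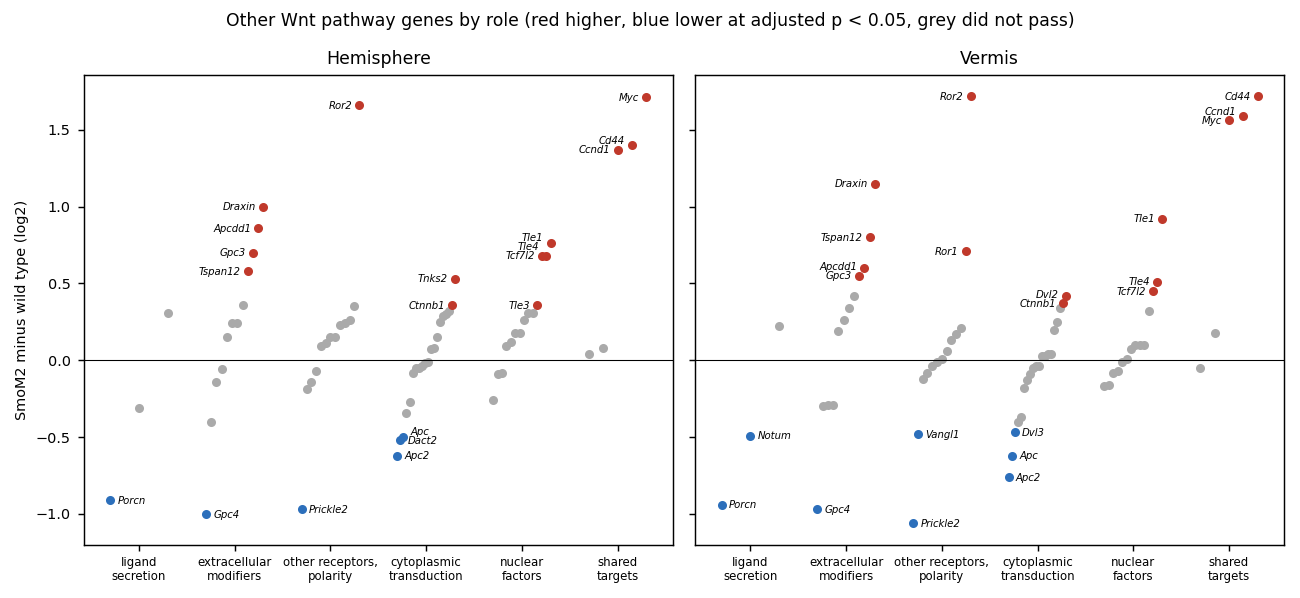
SmoM2 minus wild type difference (log2) for the 67 other pathway genes, by role, in hemisphere (left) and vermis (right), red for higher and blue for lower at an adjusted p under 0.05. Within a role genes are ordered by their difference, so the horizontal place within a role has no other meaning. Ror2, Myc, Ccnd1 and Cd44 are the highest (1.37 to 1.72), and Gpc4, Prickle2 and Porcn the lowest (-0.91 to -1.06).

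For 35 of the 56 genes more than 1 probe set was available, and these did not always move alike. The second Fzd1 probe set rose by 0.75 and 0.93 and passed in both regions (adjusted p = 0.00545 and 0.00115 over all probe sets). Both further Fzd2 probe sets passed in hemisphere (0.42 and 0.70), and 1 of them passed in vermis (0.56, adjusted p = 0.0171). A further Nkd1 probe set rose by 0.86 and 0.59 and passed in both regions, while the 2 others did not (-0.11 to 0.25). Of 4 further Sfrp1 probe sets, 2 passed in hemisphere (0.51 and 0.59) and 1 in vermis (0.55). The second Wnt4 probe set passed in hemisphere (0.76) and the second Lgr5 probe set in vermis (0.47).

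The 5 further Fzd3 probe sets did not follow the brightest one, with differences of -0.24 to 0.26 in hemisphere and -0.38 to 0.13 in vermis and none passing. With the mean of all its probe sets Fzd3 differed by -0.08 and -0.19 and passed in neither region. The second probe sets of Fzd5, Fzd10, Lgr4, Wnt7b and Znrf3 were dimmer, at means of 2.58 to 3.87, and differed by -0.29 to 0.03 in hemisphere. With the mean of all probe sets Lgr4 passed in neither region (adjusted p = 0.145 and 0.171), and in hemisphere Znrf3 (0.279) and Fzd10 (0.116) did not pass. In vermis Fzd5 (0.0586), Fzd6 (0.0595), Fzd8 (0.131), Lef1 (0.143), Wnt7b (0.228) and Wnt9b (0.635) did not pass with that mean. The second Wnt9b probe set was about as dim as the brightest (means of 3.67 and 3.73) and opposite in sign. It differed by 0.04 in hemisphere and 0.29 in vermis and did not pass. With p-values adjusted over all probe sets, Lef1 (0.052) and Wnt11 (0.0522) missed the threshold in vermis. Dim further probe sets of Lgr6, Rspo2 and Rspo3 fell in vermis (-0.44, -0.58 and -0.38) and 1 of Sfrp5 in hemisphere (-0.51), although the brightest probe sets of these genes did not pass.

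**Figure D5:**
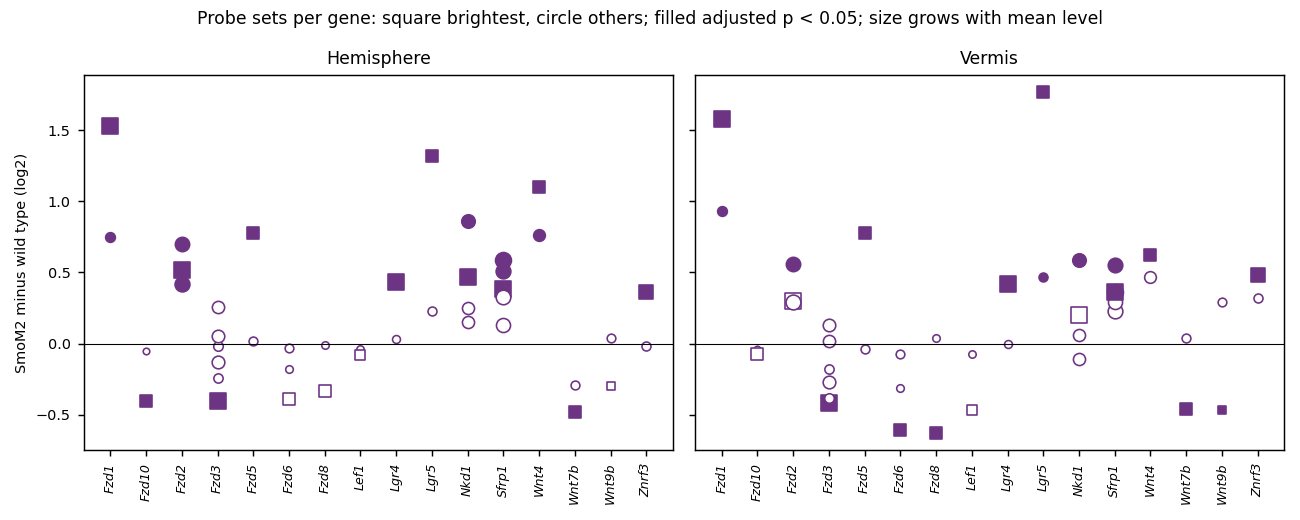
SmoM2 minus wild type difference (log2) of every probe set of the 16 passing members that have more than 1, with the brightest as a square and the others as circles, filled where the adjusted p over all probe sets is under 0.05 and larger for a higher mean level. All filled marks of Fzd1, Fzd2, Lgr5, Nkd1, Sfrp1 and Wnt4 lie above 0. For Fzd3 the square lies at -0.40 and -0.42 and the circles lie on both sides of 0.

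Markers of other cell types also differed between the genotypes, and their part in the results above was not tested. All 5 measured oligodendrocyte markers fell in each region, with medians of -1.39 and -1.83 and a summed level (log2) of 12.85 to 13.70 in wild type and 11.31 to 12.10 in SmoM2 cells. Of 6 microglia markers 5 fell in each region, with a summed level of 9.77 to 10.01 in wild type and 8.48 to 9.33 in SmoM2 cells. Inhibitory interneuron markers fell (2 of 3 in hemisphere and 3 of 3 in vermis), as did those of unipolar brush cells (1 of 3 and 2 of 3, with Lmx1a below the lower quartile of the arrays, as were Car8 of the Purkinje and Kl of the choroid plexus list). Of 7 endothelial markers 0 passed in hemisphere by limma, with 1 at an unadjusted p under 0.05, and 3 fell in vermis, where the summed level was 9.63 to 9.99 in wild type and 8.69 to 9.33 in SmoM2 cells. A link between that fall and the 8 members that fell in vermis was not tested. Of 8 pericyte and meningeal markers 1 rose and 2 fell in hemisphere and 1 rose and 3 fell in vermis, and of 8 Bergmann glia and astrocyte markers 1 rose and 2 fell in each. Of 5 oligodendrocyte precursor markers 2 rose and 1 fell in each region, of 5 Purkinje cell markers 1 rose in each and 1 fell in vermis, and of 4 choroid plexus markers 1 rose in each and 1 fell in hemisphere. Rspo1, Lgr5, Sfrp2, Fzd1 and Wif1 rose in the same cell suspensions, in which markers of other cell types moved in both directions. A link between them was not tested.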

How the data were processed

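Biotin-labelled cRNA of 12 pooled samples was read on Affymetrix arrays that probe mainly the 3' ends of transcripts. The authors deposited a table of log2 values, 1 per probe set and array, made with Partek and RMA per the submitters' processing notes. Tool versions and later filters were not stated in the sources used here. RMA subtracts background, quantile-normalizes and summarises probes, so differences of dim probe sets are compressed and no detection call is left. Array medians were 4.81 to 4.87.

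Of 45101 probe sets, 34958 had 1 gene symbol in the platform annotation, 932 several and 9211 none. The 18194 genes were each read by the probe set with the highest mean. A model with 4 group means (8 residual degrees of freedom) was fitted to all genes with limma 3.58.1 in R 4.3.3, with empirical Bayes moderation, two-sided tests and Benjamini-Hochberg adjustment, and was tested on simulated data. The number of arrays limits the precision.

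Deviations from the group means of same-numbered hemisphere and vermis arrays of 1 genotype correlated at 0.142 to 0.527 in 6 of 6 pairs, against -0.404 to 0.021 for different numbers, so the numbers were taken to pair these samples, although the labels do not state it. Across genotypes the correlations were -0.224 to 0.277, which gives no pairing.

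The members and the gene lists were chosen with earlier results of these data known. Members that passed in any comparison are named with all 12 values, other members by range or where their mean exceeded the median gene or another probe set passed. Other pathway genes are named up to 4 per role and direction where they passed. Lists of other cell types' markers are given by counts. Alternatives were other normalizations, brighter genes, the mean of all probe sets or every probe set on its own, trended and robust moderation, array weights, only the groups of a contrast, replicate blocks and leaving out each array.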

Additional observations from a re-analysis of the deposited data

How the results depend on the processing

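Alternatives with 1 value per gene were counted for the 34 calls of members between SmoM2 and wild type cells. Of these calls 15 were kept under every alternative that held the gene and 16 under every left-out array. Another 19 were lost under at least 1 alternative, and 0 reversed. Genes below the median were not in the run on brighter genes. Leaving out 1 array at a time gave 8 to 20 members in hemisphere, 11 to 20 in vermis and 0 in the regional comparisons and the interaction. For other pathway genes it gave 16 to 26, 14 to 25 and, between regions in SmoM2 cells, 0 to 1. Over all genes it gave 8 to 58 between regions in wild type, 1633 to 4276 in hemisphere, 1756 to 3827 in vermis, 2 to 18 between regions in SmoM2 and 0 to 1 for the interaction. With same-numbered arrays of 1 genotype as a random block, 1 member passed between regions in wild type, 1 other pathway gene (Celsr1, 0.63, adjusted p = 0.0358 from limma, against 0.133 with a fixed block) in SmoM2, and 198 and 39 genes of all. With these pairs as a fixed block, an alternative chosen after seeing the data, 1 member passed between regions in wild type and 1 in SmoM2. Brighter genes only gave 21 and 6 genes between regions, array weights 15 and 42 (1 other pathway gene in SmoM2), and only the groups of the contrast, which uses fewer arrays, 3 in wild type and 1753 in hemisphere. That last setting ended the hemisphere calls of Fzd3 (adjusted p = 0.0564), Fzd10 (0.107), Nkd1 (0.0653), Wnt7b (0.0676) and Znrf3 (0.0834) and the vermis call of Wnt11 (0.0549). Centring on the median ended the vermis calls of Lef1 (0.0583), Wnt7b (0.0625) and Wnt11 (0.0684), and trended moderation that of Fzd10 in hemisphere (0.0599). The cause of these shifts was not tested. The replicate number as a fixed block across genotypes, which share only a number, gave 19 members in hemisphere and 19 in vermis in place of 16 and 18, with all of those 16 and 18 among them, and added Wnt9b in hemisphere (-0.30, adjusted p = 0.0444 from limma). Dim probe sets near the floor of the arrays limit what can be seen for most ligands.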
